A study of Mus musculus with 9 samples.

Results

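The 10 genes described here are those known in brown and beige fat to depend on Prdm16: Ppargc1a, Ppargc1b, Pparg, Ppara, Cebpb, Ucp1, Cidea, Elovl3, Cox7a1 and Cox8b. Each was matched to a single Ensembl gene among the 54232 genes counted. The question was whether this fat program is present in the embryonic cochlear duct, and whether it responds there when Prdm16 is lost. Cochlear ducts were taken at E14.5 from both inner ears of littermates, each library representing 1 embryo. The groups were 3 WT embryos, 3 heterozygotes with a single Prdm16 cGT allele, and 3 null embryos with Prdm16 cGT on both chromosomes. The cGT allele is a gene trap carried by every cell of the animal from conception, so neither loss nor reduction of Prdm16 was limited to the ear, and the colony was kept on the FVB/NJ background.

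PRDM16 is a zinc finger transcriptional regulator that in brown and beige adipocytes works with C/EBPβ, PPARγ and the PGC-1 coactivators. These partners turn on mitochondrial biogenesis and a set of thermogenic genes led by the uncoupling protein UCP1, and lower the expression of muscle and white fat genes. The cochlear duct is the epithelial tube of the inner ear in which hair cells form.

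Only some of the members were clearly detected, and levels of single regulators do not by themselves show that a fat program is present. The regulators Cebpb, Ppargc1a, Ppargc1b and Ppara and the respiratory chain gene Cox7a1 were counted at low to middling levels in every embryo, whereas Ucp1, Cidea, Elovl3, Cox8b and Pparg had between 0 and 12 reads per library. None of the 5 members abundant enough to be tested was called changed between any pair of genotypes, and the other 5 were too low for a test after the filter on low counts. Over all genes tested, 1.71% were called between null and WT embryos, 0.151% between heterozygote and WT embryos, and 0.615% between null and heterozygote embryos. A gene was called when its Benjamini-Hochberg adjusted p from edgeR's quasi-likelihood test was under 0.05 and its absolute log2 fold change over 0.5.

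The proximal promoters of the members differed widely in CpG content, and 4 are shown because they run from the highest to the lowest CpG content among the members. RefSeq promoters (GRCm38.p6) were matched for 7 of the 10 members, with 9 start sites in all. The 250 bases before each start are given 5′ to 3′ on the strand of the gene, with CpG in capitals. RefSeq starts can differ from the gene positions given below, which are those of GENCODE M21. The bases before the Pparg, Ppara and Cox7a1 starts lie partly or wholly inside those gene positions. The 4 regions are chr2:167688665-167688914 (Cebpb, plus strand), chr6:115360894-115361143 (the most upstream of 3 Pparg starts, plus strand), chr5:51567726-51567975 (Ppargc1a, minus strand) and chr7:140900447-140900696 (Cox8b, minus strand).
Cebpb: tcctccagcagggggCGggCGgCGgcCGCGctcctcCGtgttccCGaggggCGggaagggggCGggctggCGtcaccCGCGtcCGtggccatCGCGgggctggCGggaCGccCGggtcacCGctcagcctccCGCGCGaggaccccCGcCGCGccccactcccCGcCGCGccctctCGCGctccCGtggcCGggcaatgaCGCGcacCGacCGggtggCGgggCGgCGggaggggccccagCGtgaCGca
Pparg: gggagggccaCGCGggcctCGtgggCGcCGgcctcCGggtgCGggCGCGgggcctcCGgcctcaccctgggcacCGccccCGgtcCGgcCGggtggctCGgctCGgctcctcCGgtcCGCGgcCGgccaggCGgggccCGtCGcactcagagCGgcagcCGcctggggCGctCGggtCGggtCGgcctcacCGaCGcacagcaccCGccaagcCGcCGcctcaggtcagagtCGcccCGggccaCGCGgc
Ppargc1a: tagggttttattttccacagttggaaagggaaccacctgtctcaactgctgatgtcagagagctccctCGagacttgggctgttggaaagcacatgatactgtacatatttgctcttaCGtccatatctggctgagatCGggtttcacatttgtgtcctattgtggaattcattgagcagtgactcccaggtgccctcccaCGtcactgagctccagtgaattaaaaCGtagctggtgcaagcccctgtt
Cox8b: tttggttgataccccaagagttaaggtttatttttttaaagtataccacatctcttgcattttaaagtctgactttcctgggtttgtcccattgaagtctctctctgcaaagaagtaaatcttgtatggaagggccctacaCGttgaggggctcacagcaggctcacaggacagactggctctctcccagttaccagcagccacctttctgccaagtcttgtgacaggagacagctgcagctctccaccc
Cebpb, the member with the most RNA per exon length, had 41 CpG and a ratio of observed to expected CpG of 0.985, above that of 93.4% of the 32851 promoters in the table, whose median was 0.373. Cox8b, with 2 reads in 9 libraries, had 1 CpG and a ratio of 0.073. The 3 Pparg promoters had 38, 12 and 2 CpG from the most upstream to the most downstream start (ratios of 0.896, 0.505 and 0.204), and Pparg was close to the detection floor. The Ppargc1a promoter had 5 CpG and a ratio of 0.347, at percentile 47.4 of all promoters. Ppara had 27 CpG, Ucp1 12 and Cox7a1 4. The nuclear receptor half-site AGGTCA, searched on both strands, was found once in each of the 2 upstream Pparg promoters and once in that of Ucp1, and 14.0% of all promoters held it. The C/EBP motif TTGCNNAA occurred 2 times before the most downstream Pparg start and in no other member, against 9.56% of all promoters. The cAMP response half-site TGACGT occurred once before Ppargc1a and in no other member, against 6.47% of all promoters. None of these motifs contains another, and such matches are a description of the letters alone.

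Total counts ranged from 24095322 to 30819118 reads per library, and 3 reads in a library, taken as the floor, equalled 0.0969 to 0.126 CPM, the counts scaled to a common library size. Prdm16 itself was at 184 to 225 CPM in the WT libraries, 123 to 151 CPM in the heterozygotes and 19.1 to 27.4 CPM in the null libraries, so no library went against its label (null against WT, log2 fold change -3.12, edgeR adjusted p = 0.000148). All 12 epithelial markers were above the floor in every library, with a summed level of 13230 to 18990 CPM. The 10 mesenchyme markers summed to 741 CPM in WT 1, 1226 CPM in WT 2 and 1575 CPM in null 3, against 179 to 243 CPM in the other 6 libraries, so these 3 libraries stood apart. The paper lists 1 of these markers, Dcn, among genes enriched in Kölliker's organ of the duct. Without Dcn the sums were 557, 1045 and 1425 CPM in these 3 libraries, against 32.1 to 105.5 CPM. The 3 were set apart on this second sum, with a cut of 300 CPM. When the 3 libraries were left out, the members called stayed at 0 in each comparison. Endothelial markers stood apart in the same libraries, at 42.9 to 73.0 CPM against 2.42 to 5.78 CPM. Null 2 differed in another way: relative to the mean of the 9 libraries, its median gene with under 1.5 kb of exon was higher by 0.09 on the log2 scale, its median gene of 1.5 to 3 kb was higher by 0.14, and its median gene over 6 kb was lower, at -0.16.

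**Figure D1:**
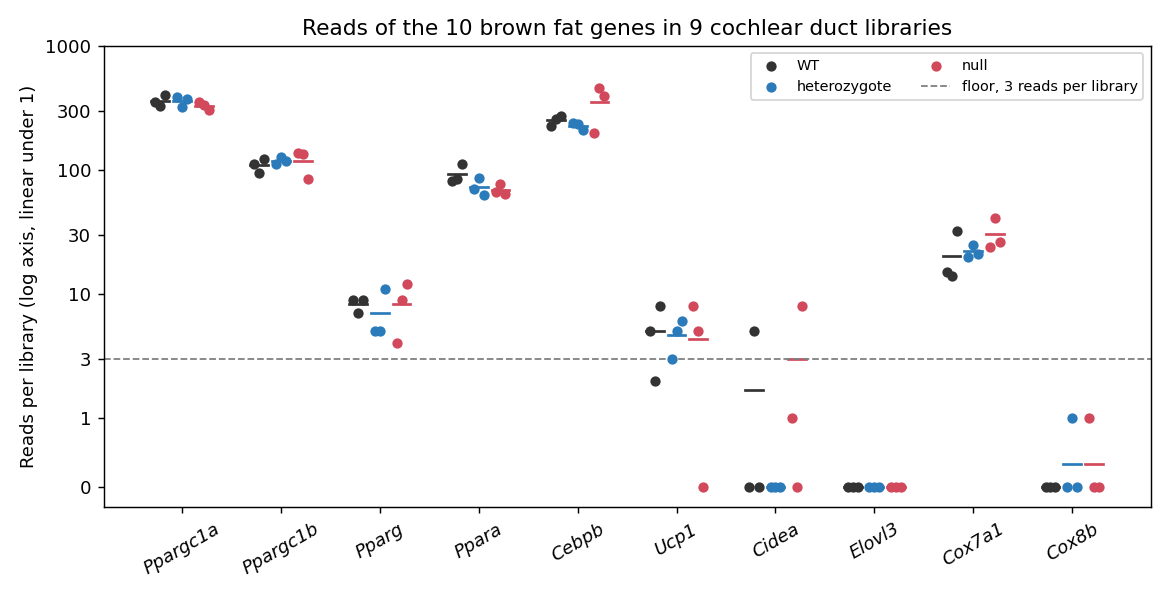
Reads of each of the 10 members in each library, by genotype, on a log axis that is linear under 1. Points are single embryos, short bars are group means and the dashed line is the floor of 3 reads. Ppargc1a, Ppargc1b, Ppara, Cebpb and Cox7a1 lie between 14 and 456 reads in every library, Pparg between 4 and 12, and Elovl3 is at 0 in all 9.

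The coactivators came first in role. Ppargc1a, which encodes PGC-1α, a coactivator of mitochondrial biogenesis, is on the minus strand of chromosome 5, at mm10 positions 51454250 to 51567726. WT embryos 1 to 3 had 13.0, 12.8 and 13.6 CPM, heterozygotes had 15.6, 11.6 and 13.5 CPM, and null embryos had 14.5, 10.8 and 12.8 CPM. The highest and the lowest heterozygote enclosed all 3 WT embryos, and the null embryos overlapped both groups. Between null and WT embryos the log2 fold change was -0.06 (95% interval -0.39 to 0.28, edgeR adjusted p = 0.908), so the interval allowed a level between 0.763 and 1.21 times that of WT. Null 2, the library low in long genes, had the lowest value of Ppargc1a, whose exons cover 6592 bases. The part of gene length in that value was not tested.

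Ppargc1b, the gene of the related coactivator PGC-1β on chromosome 18 (61298136 to 61400431, minus strand), had 4.11, 3.73 and 4.14 CPM in WT embryos. Heterozygotes were at 4.46, 4.58 and 4.35 CPM, and null embryos at 5.66, 4.33 and 3.52 CPM. All 3 heterozygotes lay above all 3 WT embryos by a narrow margin, and the null embryos spanned both groups. It was the only member whose heterozygote and WT values did not overlap, which 18.0% of all genes tested also showed in that pair. Its log2 fold change was 0.16 in heterozygote against WT embryos (-0.18 to 0.50, edgeR adjusted p = 0.712) and 0.17 in null against WT embryos (-0.35 to 0.69, edgeR adjusted p = 0.812).

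Of the nuclear receptors, only Ppara had enough reads to be tested. Ppara, the fatty acid sensing receptor that controls fatty acid oxidation, lies on chromosome 15 from 85734983 to 85802819 on the plus strand. WT embryos had 3.00, 3.33 and 3.80 CPM of it, against 2.81, 3.10 and 2.30 CPM in heterozygotes and 2.72, 2.49 and 2.68 CPM in null embryos. Every null embryo was below every WT embryo, and the heterozygotes overlapped both. Ppara was the only member whose null and WT values did not overlap, as did 19.0% of all genes tested. The log2 fold change between null and WT embryos was -0.37 (-0.83 to 0.10, edgeR adjusted p = 0.528), and between heterozygote and WT embryos it was -0.30 (-0.74 to 0.13, edgeR adjusted p = 0.563). The interval reached down to 0.561 times the WT level, so a fall of that size could not be told from no change with 3 embryos a group.

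Pparg, the receptor that drives adipocyte differentiation, lies on chromosome 6 from 115360951 to 115490399 on the plus strand. It had 9, 7 and 9 reads in WT embryos, 5, 5 and 11 in heterozygotes, and 4, 9 and 12 in null embryos. Every library was above the floor of 3 reads, and the groups overlapped throughout. Summed over 3 embryos it had 25 reads in WT, 21 in heterozygote and 25 in null embryos, or 0.305 CPM (95% Poisson interval 0.197 to 0.450), 0.263 CPM (0.163 to 0.401) and 0.316 CPM (0.205 to 0.467). These intervals cover counting error only. In a bulk sample, a few cells with much Pparg RNA and many cells with little cannot be told apart.

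Cebpb encodes C/EBPβ, the basic leucine zipper factor with which PRDM16 forms a complex in the fat lineage, and it is a gene of 1 exon on chromosome 2 from 167688915 to 167690418 on the plus strand. The WT libraries held 8.41, 10.1 and 9.19 CPM. The heterozygotes held 9.60, 8.44 and 7.61 CPM, and the null libraries 8.22, 14.7 and 16.6 CPM. Null 2 and null 3 were above all 6 embryos of the other genotypes, while null 1 lay among them, so the groups overlapped. The log2 fold change was 0.51 in null against WT embryos (-0.08 to 1.10, edgeR adjusted p = 0.480) and 0.63 in null against heterozygote embryos (0.05 to 1.21, edgeR adjusted p = 0.406). Among the 5 members that passed the filter, the second of these was the only comparison with an unadjusted p under 0.05 (0.0373, edgeR), and it was not called. Without null 1, the edgeR adjusted p was 0.102 against WT and 0.0838 against heterozygote embryos, with log2 fold changes of 0.76 and 0.88. Without null 3, the log2 fold changes were 0.31 (edgeR adjusted p = 0.587) and 0.43 (edgeR adjusted p = 0.505). Over all alternatives those adjusted p-values ran from 0.102 to 0.784 and from 0.0838 to 0.791. Null 3 was the library with the most mesenchyme marker RNA, and null 2 the one high in short genes; Cebpb has 1504 exon bases. Without the 3 mesenchyme-rich libraries, a lone WT library was left, assumed to vary like the other groups. The log2 fold change against WT was then 0.33. With the mesenchyme covariate and all embryos kept it was 0.61 (edgeR adjusted p = 0.351). The part of gene length in the Cebpb values was not tested.

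Cebpb also shares 312 exon bases with Tmem189 on the opposite strand, and whether the reads were counted by strand is not given in the sources used here. Tmem189 had 17974 reads over the 9 libraries against 2489 for Cebpb. It was at 71.6, 74.6 and 77.0 CPM in WT, 76.4, 79.6 and 79.4 CPM in heterozygote and 64.9, 78.5 and 66.6 CPM in null embryos. Null 3, the highest library for Cebpb, was the second lowest for Tmem189. Null 2, the second highest for Cebpb, was above every WT embryo for Tmem189. The part of Tmem189 reads in the Cebpb counts was not tested. Between null and WT embryos, the log2 fold change of Tmem189 was -0.09 (edgeR adjusted p = 0.756).

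**Figure D2:**
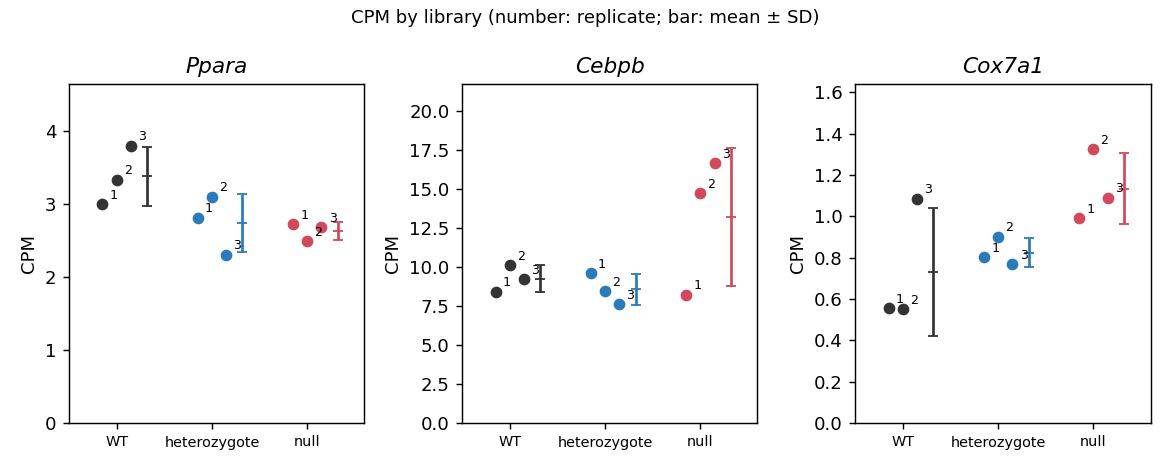
CPM of Ppara, Cebpb and Cox7a1 in each embryo, by genotype. Numbers are replicates and bars show mean ± SD (n = 3). The null embryos lie under the WT embryos for Ppara, null 2 and null 3 lie above the other embryos for Cebpb, and WT 3 lies among the null embryos for Cox7a1.

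The thermogenic effectors were at or near the floor. Ucp1, whose protein uncouples respiration from ATP synthesis and which defines the brown adipocyte, lies on chromosome 8 from 83290352 to 83298452 on the plus strand. It had 5, 2 and 8 reads in WT embryos, 3, 5 and 6 in heterozygotes, and 8, 5 and 0 in null embryos. It passed the floor in 6 of 9 libraries, with 42 reads in all. The summed level was 0.183 CPM (95% Poisson interval 0.102 to 0.302) in WT embryos. It was 0.175 CPM (0.0957 to 0.294) in heterozygote and 0.164 CPM (0.0876 to 0.281) in null embryos. The intervals overlapped, and they cover counting error only, not the spread between embryos. With no filter on low counts, the edgeR adjusted p for Ucp1 in null against WT embryos was 0.982.

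Cidea, the gene of a lipid droplet protein, lies on chromosome 18 from 67343604 to 67367785 on the plus strand. It had 5 reads in WT 2, 8 in null 3, 1 in null 1 and 0 in the other 6 libraries. Both libraries above the floor, WT 2 and null 3, were those with the highest summed mesenchyme marker level, and the part of that RNA in the Cidea reads was not tested. Elovl3, a fatty acid elongase gene on chromosome 19 (46131897 to 46135694, plus strand), had 0 reads in all 9 libraries. The floor of 3 reads at the length of Elovl3 is between 0.0491 and 0.0637 FPKM (CPM per kb of exon) in a library.

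Of the respiratory chain subunits, Cox7a1 was counted in every embryo and Cox8b was not. Both encode the forms of cytochrome c oxidase subunits found in muscle and brown fat. Cox7a1, on chromosome 7 from 30184144 to 30186078 on the plus strand, had 15, 14 and 32 reads in WT embryos, 20, 25 and 21 in heterozygotes, and 24, 41 and 26 in null embryos. These were 0.556, 0.549 and 1.09 CPM in WT, 0.803, 0.901 and 0.768 CPM in heterozygote and 0.991, 1.32 and 1.09 CPM in null embryos. WT 1 and WT 2 were the lowest libraries, and WT 3 was among the null embryos. The log2 fold change between null and WT embryos was 0.62 (-0.23 to 1.48, edgeR adjusted p = 0.566), an interval from 0.85 to 2.80 times the WT level. All null embryos were above all heterozygotes, as for no other member and for 18.2% of all genes tested to one side or the other, with a log2 fold change of 0.46 (-0.20 to 1.12, edgeR adjusted p = 0.563). The highest value was that of null 2, the library high in short genes, and Cox7a1 has 535 exon bases, whose part in the value was not tested. WT 1 and WT 2 were 2 of the 3 mesenchyme-rich libraries. Without these 3, which leaves a lone WT library, the null against WT log2 fold change was 0.11. With the mesenchyme covariate and all embryos kept it was 0.48 (edgeR adjusted p = 0.728). Without WT 3, the highest WT library, it was 1.04, and over all alternatives the adjusted p-values ran from 0.404 to 0.956.

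Cox8b, on chromosome 7 from 140898945 to 140900446 on the minus strand, had 1 read in heterozygote 2, 1 in null 1 and 0 in the other 7 libraries. With no filter on low counts, Pparg, Ucp1, Cidea and Cox8b could be fitted beside 31930 to 32010 genes, and none was called. The lowest of their edgeR adjusted p-values was 0.44, for Cidea in null against heterozygote embryos, where the unadjusted p was 0.0308.

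**Figure D3:**
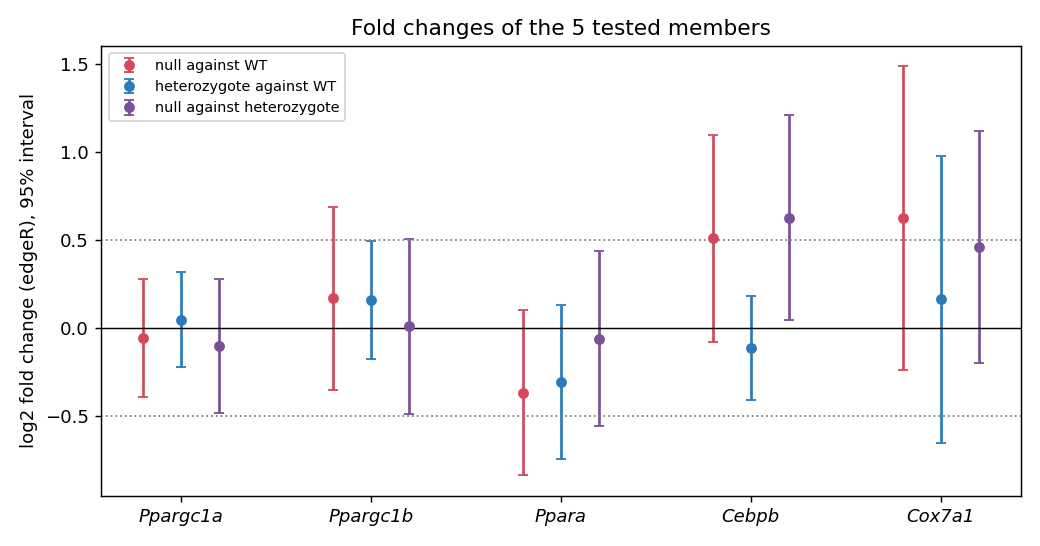
Log2 fold change of the 5 tested members in the 3 comparisons of genotypes, with 95% intervals from edgeR. The dotted lines mark 0.5 in either direction. The interval lies above 0 only for Cebpb in null against heterozygote embryos (0.05 to 1.21), and all 15 adjusted p-values are 0.406 or higher.

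Per length, the members fell into an order with some neighbours that overlapped. The mean over 9 libraries was 6.87 FPKM for Cebpb, 1.99 for Ppargc1a, 1.68 for Cox7a1, 1.08 for Ppargc1b, 0.760 for Ppara, 0.105 for Ucp1, 0.0999 for Pparg, 0.0571 for Cidea, 0.0239 for Cox8b and 0 for Elovl3. From Ppargc1a down, the ranges over libraries of each pair of neighbours overlapped, except between Ppara and Ucp1. They were 1.63 to 2.37 for Ppargc1a, 1.03 to 2.48 for Cox7a1, 0.882 to 1.42 for Ppargc1b and 0.601 to 0.991 for Ppara. Ucp1 (0 to 0.202), Pparg (0.0559 to 0.170), Cidea (0 to 0.301) and Cox8b (0 to 0.115) overlapped one another. Cebpb, at 5.06 to 11.1 FPKM, was above the other members in every library. Among 21983 protein-coding genes, whose median was 1.53 FPKM, Cebpb stood at percentile 68.3, Ppargc1a at 52.0, Cox7a1 at 50.7, and Ppara at 45.4.

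Each member has relatives outside the fat program, and on the FPKM scale the most abundant of these had a higher mean than the member in each of the 10 cases. For Cidea that relative, Cideb, was itself at only 0.129 FPKM. Pprc1, the third PGC-1 family coactivator, was at 14.9 FPKM, a ratio of 7.48 to Ppargc1a (6.24 to 8.91 over libraries). Ppard was at 9.87 FPKM, a ratio of 13.0 to Ppara (10.2 to 16.5) and of 98.7 to Pparg (67.7 to 178), which had only 4 to 12 reads per library. Cox7a2, the form of the subunit used in most tissues, was at 61.6 FPKM, a ratio of 36.8 to Cox7a1 (28.3 to 65.1). Cox8a was at 124 FPKM where Cox8b was at 0.0239, Elovl5 at 21.9 FPKM where Elovl3 had no read, and Ucp2 at 19.3 FPKM where Ucp1 was at 0.105. Cebpb was closest to its relative, Cebpg at 10.5 FPKM, and the ratio of the pair ran from 0.893 to 2.24 over libraries. Cebpz, at 16.3 FPKM, shares the family name and not the leucine zipper domain. Of the 23 relatives listed, 18 were tested between null and WT embryos, none was called, and the median log2 fold change was 0.03 against 0.01 for all genes.

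**Figure D4:**
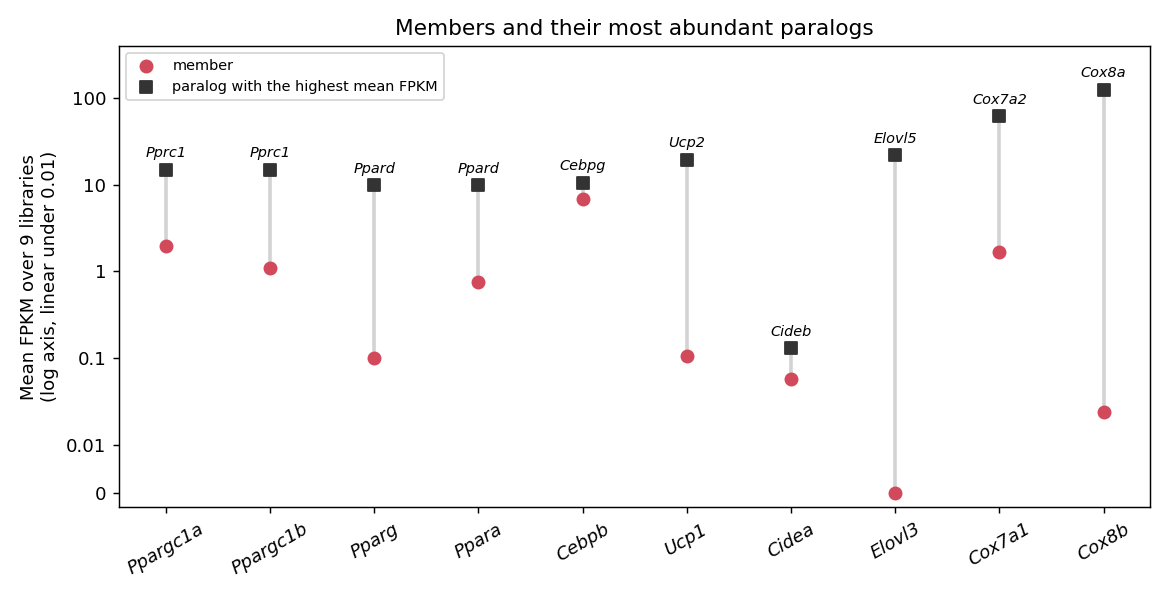
Mean FPKM over 9 libraries of each member (circles) and of its relative with the highest level (squares), on a log axis that is linear under 0.01. Cox8a (124 FPKM) and Cox7a2 (61.6) stand far above Cox8b (0.0239) and Cox7a1 (1.68), while Cebpg (10.5) is near Cebpb (6.87).

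The wider brown and beige fat genes were likewise mixed. Of 26 other genes of that program, 16 were tested between null and WT embryos, 1 was called higher and none lower, with a median log2 fold change of 0.12. The defining genes Dio2 and Adrb3, a thyroid hormone deiodinase and the β3-adrenergic receptor, had 10 reads and 1 read in 9 libraries. The called gene was S100b, a calcium-binding protein gene that was at 2.93, 3.61 and 4.82 CPM in WT, 5.62, 3.86 and 4.06 CPM in heterozygote, and 12.5, 12.2 and 25.4 CPM in null embryos. All null embryos were well above the other 6, by 2.13 ± 0.337 (SE) on the log2 scale against WT (edgeR adjusted p = 0.0241) and by 1.89 ± 0.317 (SE) against heterozygote embryos (edgeR adjusted p = 0.0481). Without the mesenchyme-rich libraries, which leaves a lone WT library, S100b was at 1.36 against WT (edgeR adjusted p = 0.0498) and 1.46 against heterozygote embryos (edgeR adjusted p = 0.00651). Bmp7, at 59.0 FPKM, and Slc29a1, at 20.7 FPKM, were the most abundant genes of the list, with log2 fold changes of -0.07 and 0.47 (edgeR adjusted p = 0.731 and 0.0725). Ebf2, a factor that marks brown fat precursors, was named after its values were seen: it was at 4.48 CPM in WT 1, 5.37 in WT 2 and 8.80 in null 3, and at 0.161 to 0.505 CPM in the other 6 libraries. Its high libraries were the 3 rich in mesenchyme markers.

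Genes of mature adipocytes gave no call. Of 20 listed, 12 were tested between null and WT embryos, and the median log2 fold change was 0.25. The hormone genes Lep and Adipoq had 0 and 4 reads over the 9 libraries, the fatty acid binding protein gene Fabp4 had 5, and Plin1, which coats the fat droplet, had 28. The most abundant were Pnpla2, a triglyceride lipase gene at 10.9 FPKM, and Agpat2, a lipid synthesis gene at 8.43 FPKM, with log2 fold changes of 0.27 (edgeR adjusted p = 0.473) and 0.40 (edgeR adjusted p = 0.236). Of 18 skeletal muscle genes, a program that PRDM16 holds down in the fat lineage, 5 were tested and none was called, with a median of -0.01, and Mylpf at 1.97 FPKM and Ryr1 at 0.975 FPKM were the highest. Myf5 had 0 reads in all libraries.

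In contrast to the effectors, a list of PRDM16 partners, other coregulators and transcription factors was well represented. Of 24 listed, 22 were tested between null and WT embryos, and 1 was called lower, with a median log2 fold change of -0.07. Ctbp1, the gene of a corepressor, was at 70.7 FPKM (log2 fold change -0.01, edgeR adjusted p = 0.985) and the retinoid X receptor gene Rxrg at 48.0 FPKM (-0.24, edgeR adjusted p = 0.446). The called gene was Ebf1, an early B cell factor family member, at 193, 194 and 156 CPM in WT, 164, 151 and 162 CPM in heterozygote and 107, 91.3 and 119 CPM in null embryos. All null embryos were lower than all others, with -0.78 ± 0.125 (SE) on the log2 scale against WT (edgeR adjusted p = 0.0248). Against heterozygote embryos Ebf1 was at -0.59 and was not called (edgeR adjusted p = 0.0656). Without the mesenchyme-rich libraries the value against WT was -0.65 (edgeR adjusted p = 0.0449, with a lone WT library), and that against heterozygote embryos was -0.68 and passed the threshold (edgeR adjusted p = 0.0122).

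Downstream of the PGC-1 coactivators, 29 of 30 genes of mitochondrial biogenesis and respiration were tested, with 1 called lower and a median of -0.01. Atp5b and Cox4i1, of the ATP synthase and cytochrome c oxidase, were at 200 and 139 FPKM, with log2 fold changes of 0.05 and 0.17 (edgeR adjusted p = 0.876 and 0.714). The called gene was Esrrb, an orphan nuclear receptor gene of the family through which PGC-1 proteins act. It was at 62.5, 44.6 and 47.4 CPM in WT, 42.6, 15.1 and 28.9 CPM in heterozygote and 18.4, 22.7 and 15.6 CPM in null embryos, and the null and WT groups did not overlap. The change was -1.45 ± 0.177 (SE) on the log2 scale (edgeR adjusted p = 0.00768), and it was -1.20 with an adjusted p of 0.301 in edgeR without the mesenchyme-rich libraries. The other genes of its family, Esrra and Esrrg, had estimates of the opposite sign, at 0.34 and 0.67 (edgeR adjusted p = 0.313 and 0.159), and neither was called. Their null and WT values did not overlap, as was the case for 6 of the 29 tested genes of this list and for 19.0% of all genes tested.

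Of 30 targets of the PPAR receptors, 26 were tested and 1 was called higher, with a median log2 fold change of 0.14. Pdk4, the gene of a kinase that turns cells from glucose to fatty acid oxidation, was the called gene, at 4.48, 3.88 and 3.66 CPM in WT, 8.11, 6.60 and 4.42 CPM in heterozygote and 13.0, 10.1 and 9.64 CPM in null embryos. The 3 genotypes did not overlap except between WT 1 and heterozygote 3, but Pdk4 was not called in heterozygote against WT (edgeR adjusted p = 0.22) or null against heterozygote embryos (edgeR adjusted p = 0.285). The change against WT was 1.44 ± 0.184 (SE) on the log2 scale (edgeR adjusted p = 0.00955), and without the mesenchyme-rich libraries it was 1.66 with an edgeR adjusted p of 0.0634. Scd2, a desaturase gene at 249 FPKM, and Acaa2, of mitochondrial β-oxidation at 53.4 FPKM, were at -0.02 and 0.24 (edgeR adjusted p = 0.965 and 0.589). Ppara and Pdk4 thus had estimates of opposite sign between null and WT embryos.

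**Figure D5:**
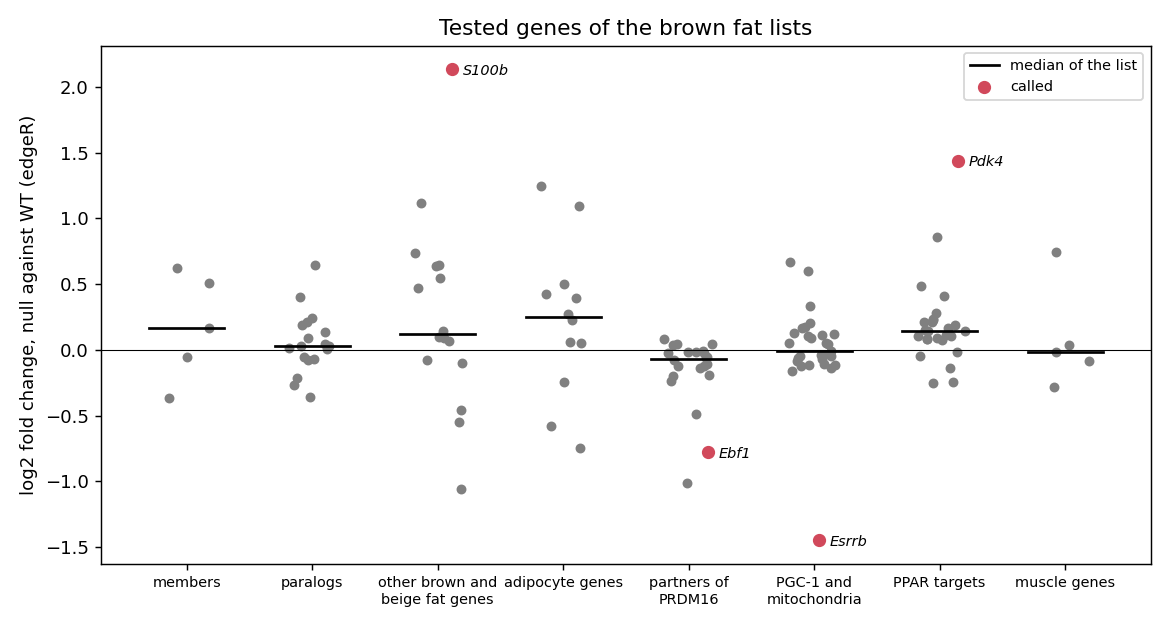
Log2 fold change between null and WT embryos of each tested gene in the lists of the fat program. Black bars are list medians and red points are called genes. List medians lie between -0.07 and 0.25, and the called genes are S100b (2.13), Pdk4 (1.44), Ebf1 (-0.78) and Esrrb (-1.45).

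The members did not vary as a unit. Over the 9 libraries, the Pearson r of log2 CPM between pairs of the 5 tested members ran from -0.54 (Ppargc1b and Cebpb) to 0.54 (Cebpb and Cox7a1), as a description of libraries that differ in depth and in mesenchyme RNA. Among 17796 other genes, the pattern most like that of Ppargc1a belonged to Rasgrp1 (r = 0.957) and Nhlrc3 (0.945). For Ppargc1b the nearest were Catsper4 (0.977) and AC157931.1 (0.947), and for Ppara they were Lgr6 (0.936) and 4930539E08Rik (0.926). For Cebpb they were Rcn3 (0.974) and Gm9204 (0.973). These are the highest of 17796 values over only 9 libraries, where high values can arise by chance, which was not tested. The level of 4930539E08Rik averaged only 0.453 CPM.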

How the data were processed

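RNA of 9 cochlear duct libraries was measured by single-read sequencing of TruSeq mRNA libraries. The submitters' processing notes name cutadapt 1.13, STAR, HTSeq 0.6.1p1, DESeq2 and mm10. The authors deposited a table per library of the raw read count on every Ensembl gene, and the strand setting and annotation release behind them are not given in the sources used here. Gene names, positions and exon lengths came from GENCODE M21 of the same build, which held 54165 of the 54232 genes.

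Counts were tested with edgeR 4.0.16 in R 4.3.3 (TMM, filterByExpr with a minimum count of 10, quasi-likelihood test), fitting 2 genotypes and their 6 libraries at a time, with Benjamini-Hochberg adjustment over all genes tested. Levels in CPM and FPKM used TMM factors over 9 libraries. Replicates differed beyond sampling noise in every pair (lowest mean chi-square of a gene 5.7).

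The members, lists and tests were chosen with earlier results of these data known. Named genes are the members and Prdm16, of each list the genes called in null against WT embryos and the 2 with the highest FPKM, the most abundant relative of each member (leaving out Cebpz, which lacks the leucine zipper), and the 2 genes most like each tested member over 1 CPM. Dio2, Adrb3, Lep, Adipoq, Fabp4, Plin1, Myf5, Ebf2, Esrra, Esrrg and Tmem189 were chosen after their values were seen. Alternatives were DESeq2 1.42.0, limma-voom (limma 3.58.1), RLE factors, other filters, all libraries in one fit, covariates for sex and mesenchyme genes, a replicate block and leaving out each embryo. Leaving out the 3 mesenchyme-rich libraries was chosen after seeing the data. Sex was inferred from Y-linked genes, by which WT 1, heterozygote 1, null 1 and null 2 were male, so it was unevenly spread over the genotypes.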

Additional observations from a re-analysis of the deposited data

How the results depend on the processing

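The count of members called stayed at 0 in every comparison under each alternative run, and the Prdm16 change between null and WT embryos stayed called. Of the refitted member fold changes 222 kept their sign and 15 changed it, each with an edgeR or limma adjusted p of 0.639 or higher. With the mesenchyme covariate, heterozygote against WT values were -0.10 for Ppargc1a and -0.46 for Cox7a1, and without the 3 mesenchyme-rich libraries Cox7a1 was -0.39. Ppargc1b in null against heterozygote embryos was -0.016 with limma-voom, -0.0135 with the replicate block and -0.0858 with the sex covariate. Leaving out 1 embryo at a time gave, for null against WT, -0.16 to 0.0573 for Ppargc1a and -0.0271 to 0.32 for Ppargc1b. For heterozygote against WT it gave -0.0621 to 0.15 for Ppargc1a and -0.00026 to 0.57 for Cox7a1. For null against heterozygote it gave -0.20 to 0.0111 for Ppargc1a, -0.18 to 0.16 for Ppargc1b and -0.17 to 0.0417 for Ppara. The cause of these sign changes was not tested.

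Whether the replicate numbers pair the embryos is not stated. The mean correlation of same-number deviations was -0.157, 0.143 and 0.02 in the 3 comparisons, and so few embryos cannot settle the question. The replicate block changed no call of a member. Over all genes, calls between null and WT embryos were 293, against 609 with DESeq2, 133 with the replicate block and 68 to 446 without 1 embryo. Between heterozygote and WT embryos there were 26, against 297, 197 and 0 to 505, and between null and heterozygote embryos 105, against 361, 52 and 12 to 182. A mean count of 50 or more removed Cox7a1, which then had no value. Ucp1, Cidea, Elovl3, Cox8b and Pparg, with 0 to 12 reads per library, did not pass the filter on low counts.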
